A study of Mus musculus with 6 samples.

Results

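Glycolysis, the pentose phosphate pathway, the pyruvate dehydrogenase step and the tricarboxylic acid (TCA) cycle were followed through 43 genes, taken as every probe set of a mouse expression array that the array annotation maps to 1 gene symbol among them. Of these genes 39 had such a probe set, among 11429 genes measured in all, and together they had 77 of the 21646 probe sets tested. Gpi1, Aldoc, Eno1 and G6pdx had none and were not analysed here, so the first enzyme of the oxidative pentose phosphate arm and 3 glycolytic members are missing from every count. The members were chosen with earlier results of these data known.

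Mouse oocytes were compared at the germinal vesicle (GV) stage, when the fully grown oocyte rests in meiotic prophase with an intact nucleus, and at the second meiotic metaphase (MII), when it is mature and has extruded its first polar body. There were 3 samples of 300 oocytes per stage, stated to be biological replicates, each on 1 array. All mice were 22 to 24 days old and had received 5 IU of equine chorionic gonadotropin, which stimulates follicle growth, with no strain or genotype given in the labels. GV oocytes were taken 44 to 46 h later from large antral follicles and freed of cumulus cells by pipetting; MII oocytes were taken from the oviduct 14 h after a further 5 IU of human chorionic gonadotropin, the trigger of ovulation, and were freed of cumulus cells with 1 mg/ml hyaluronidase for 3 to 5 min. The collection medium for both stages held 5 µM milrinone, an inhibitor of the oocyte phosphodiesterase that blocks maturation. From each sample 10 ng of total RNA went through 2 rounds of amplification. Each sample was a pool and equal amounts of RNA were amplified, so less of a transcript per oocyte, a smaller share of it in the total and fewer cells of a type that carries it cannot be told apart.

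Glycolysis splits glucose into pyruvate, which lactate dehydrogenase exchanges with lactate. The pentose phosphate pathway branches from its first intermediate and supplies NADPH and ribose. Pyruvate dehydrogenase turns pyruvate into acetyl-CoA inside mitochondria, and the TCA cycle oxidises it, feeding electrons to respiration. Mouse oocytes use glucose poorly and depend on pyruvate, much of it made by the surrounding cumulus cells, which are strongly glycolytic.

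Values are log2 expression values as the authors deposited them, and the differences given are MII minus GV with the standard error (SE) of a limma fit over all probe sets, n = 3 per stage throughout. A gene was called when its Benjamini-Hochberg adjusted p over all tested probe sets was under 0.05, and each gene was represented by its probe set with the highest mean. Array medians were 6.10 to 6.12 for GV and 5.47 to 5.49 for MII. A fall whose MII values all lay under their array medians is given as at least so many fold, since no measure of background was used. Such a minimum holds on the deposited scale only, and each of these falls was smaller with array medians made equal. Arrays of one stage correlated at 0.988 to 0.991 across probe sets and arrays of different stages at 0.885 to 0.906. All 14 measured oocyte markers had means over the overall probe set median (5.85), and 7 of them were called lower and 2 higher in MII, where 37.8% of all genes were lower and 10.5% higher. Of 10 granulosa and cumulus markers 7 were called lower and 0 higher in MII by limma (7 and 0 at unadjusted p under 0.05, 6 and 0 with no moderation of the variance), and 3 lay above that median. Their mean log2 value ran from 5.19 to 5.31 on GV and from 4.30 to 4.38 on MII arrays. That of the oocyte markers was also lower, at 11.15 to 11.23 on GV and 10.11 to 10.22 on MII arrays. Of 5 cumulus expansion markers 0 were called by limma (0 at unadjusted p under 0.05, 0 with no moderation), and 0 lay above the median. Cumulus cells express glycolytic enzymes, and the part of these cells in the differences below was not tested.

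Across the 39 genes, 16 fell (41.0%) and 5 rose (12.8%) from GV to MII, where 37.8% of all 11429 genes fell and 10.5% rose, so neither share stands far from the background. The median log2 difference was -0.21 over the members and -0.20 over all genes. The GV and MII values of 24 of the 39 members did not overlap, against 57.9% of all genes. By probe set, 28 of 77 were lower and 8 higher, against 34.1% and 10.9% of all probe sets. The steps differed in how their members divided. In the TCA cycle 9 of 14 genes fell and 1 rose, with a median difference of -1.30. In glycolysis 5 of 12 fell and in the pentose phosphate pathway 2 of 6 fell, with medians of -0.22 and -0.34, and 0 genes rose in either step by limma (0 and 0 at unadjusted p under 0.05, 0 and 0 with no moderation). In the pyruvate dehydrogenase step 3 of 6 rose, with a median of 0.37, and 0 fell by limma (0 unadjusted, 0 with no moderation). Clybl, which stands outside these steps, rose. The difference between steps was described and not tested.

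**Figure D1:**
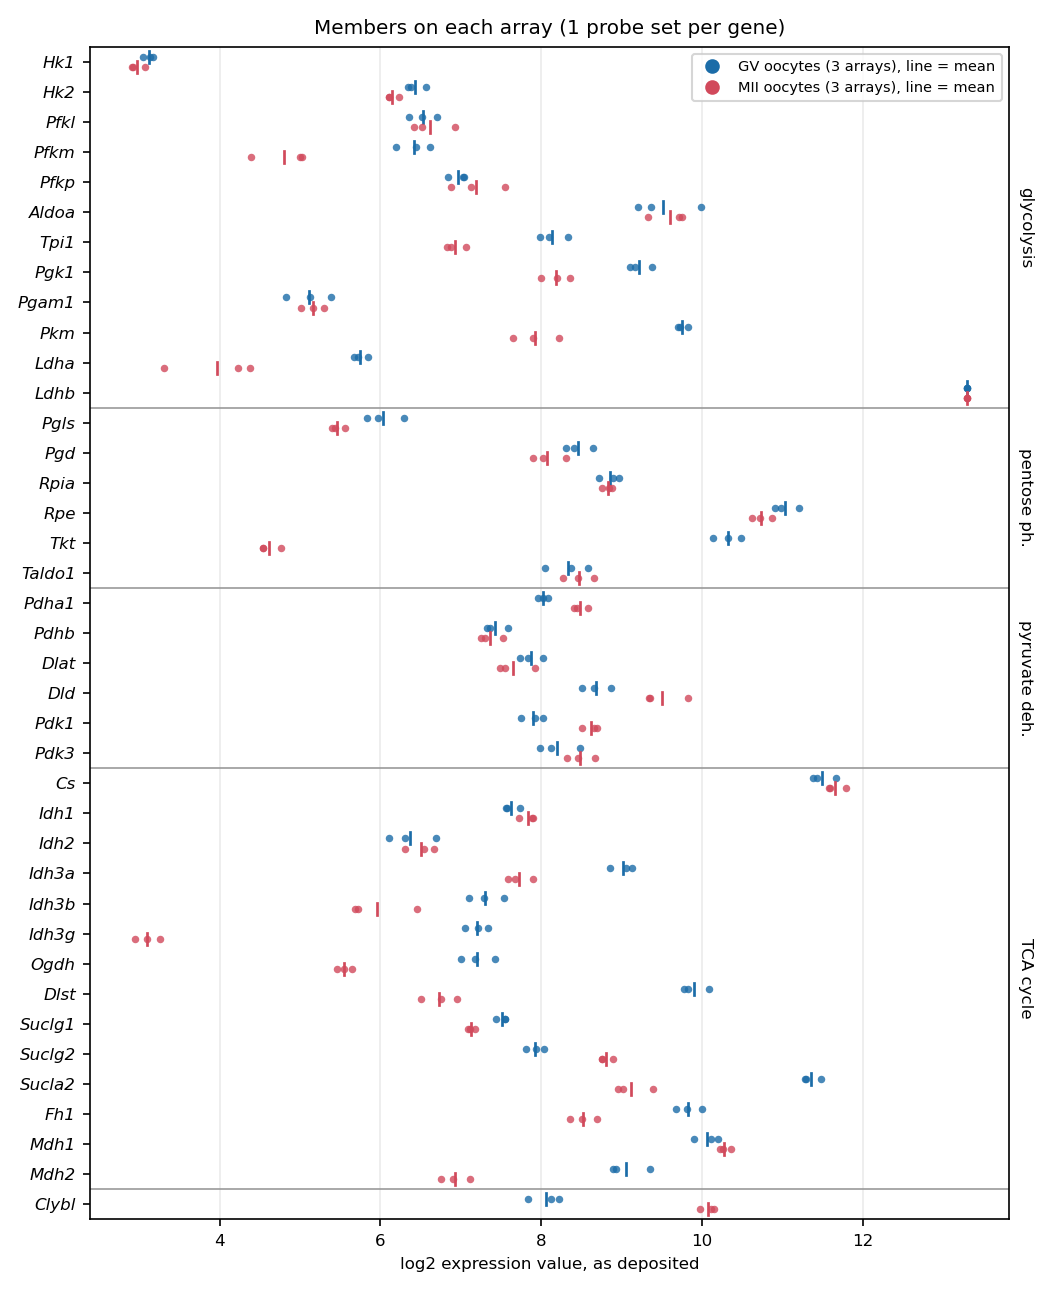
Log2 expression value (x axis) of the 39 measured members on each array, with 3 GV points (blue) and 3 MII points (red) per gene, a short line at each mean, and 1 probe set per gene. The GV and MII points stand farthest apart for Tkt and Idh3g, and Ldhb sits at the top of the range at both stages.

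How many members were called each way varied with the scale set between arrays. Giving every array the same median, which shifts the median difference of all probe sets by 0.62, left 14 members lower and 21 higher (all genes: 22.5% and 52.2%), and after quantile normalization, a shift of 0.34, they were 14 and 16 (24.5% and 34.5%). With hybridization controls made equal, a shift of -0.40, 15 were lower and 1 was higher (36.7% and 0.437%). With poly-A controls made equal, a shift of -0.87, 34 were lower and 1 was higher (86.5% and 0.271%). Of the 16 falls, 14 were called in all 4 of these scalings, the exceptions being Pgls and Suclg1, whereas of the 5 rises only that of Clybl was. The share of all called genes that kept their call in this way is not given here. The TCA cycle kept more falls than rises in each scaling (8 and 5 with equal medians, 8 and 4 after quantile normalization, 8 and 0 with hybridization controls, 13 and 0 with poly-A controls). In glycolysis rises outnumbered falls with equal medians (5 falls and 7 rises) but not after quantile normalization (5 and 4), and in the pentose phosphate pathway they did in both (1 and 2 each time). The 7 rises include Ldhb, which read the highest value on all 6 arrays, so its 0.62 is the shift alone. The pyruvate dehydrogenase step turned from 6 rises and 0 falls with equal medians to 0 rises and 3 falls with poly-A controls. The controls were themselves uneven. Hybridization controls averaged 9.82, 8.97 and 8.94 on the GV arrays and 9.86, 9.66 and 9.42 on the MII arrays. GV replicate 1 thus stood among the MII values. Poly-A controls averaged 4.43 in GV and 5.31 in MII, below the array medians. Whether poly-A transcripts were added to these samples is not given in the sources used. The part of both kinds of control in these shifts was not tested.

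**Figure D2:**
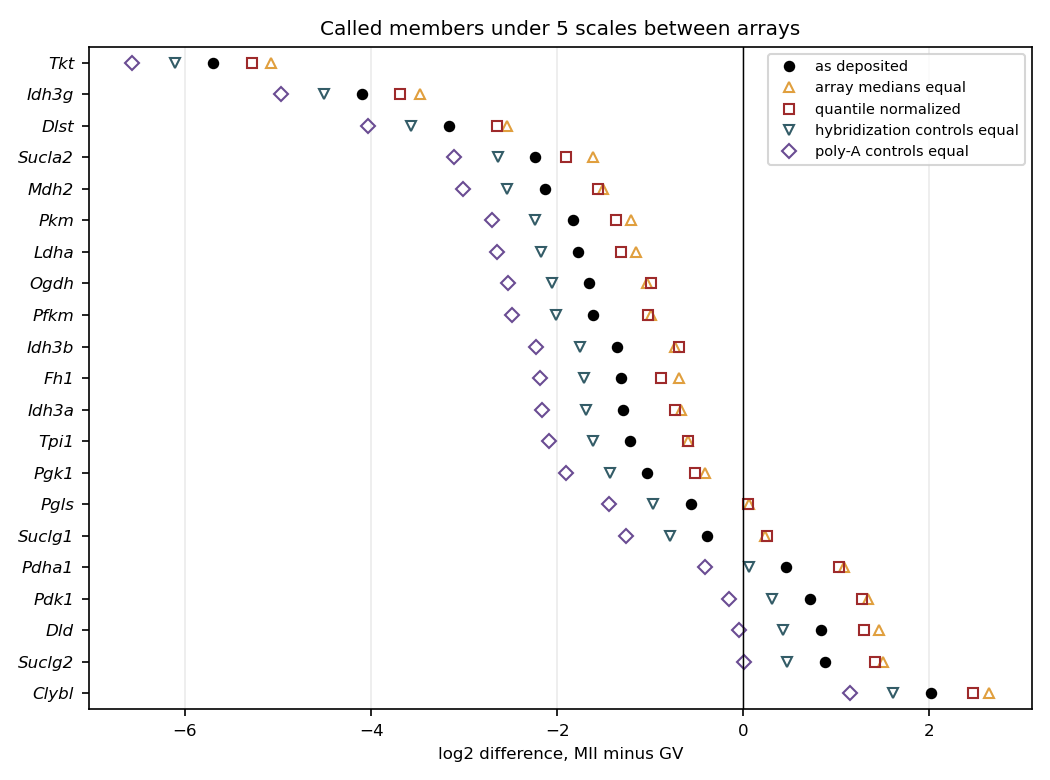
Log2 difference, MII minus GV (x axis), of the 21 called members under the deposited scale (filled circles) and 4 other scales between arrays (open symbols). Setting medians or controls equal moves every gene by one amount, 0.62 for medians and -0.87 for poly-A controls, while quantile normalization moves genes unequally. Tkt, Idh3g and Dlst stay far below 0 and Clybl above it, while Pgls, Suclg1, Pdha1, Pdk1 and Dld change side and Suclg2 ends at 0.00.

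On the probe sets that stand for the genes, Tkt had the steepest fall of the 39 and Clybl the largest rise. Suclg2 and Sucla2, alternative subunits of one enzyme, were called in opposite directions on the deposited scale. The promoters of these 4 members, on which the results turn, are shown in the order Suclg2, Sucla2, Tkt and Clybl. They are the 250 bases before the annotated start in RefSeq (GRCm38.p6), 5′ to 3′ on the gene's strand, at chr6:95718847-95719096 (minus strand), chr14:73552536-73552785, chr14:30548881-30549130 and chr14:122181444-122181693 (all plus strand) in that order. Capitals mark GGGCGG, the GC box core, and CCAAT on either strand, and touching matches run together.
Suclg2: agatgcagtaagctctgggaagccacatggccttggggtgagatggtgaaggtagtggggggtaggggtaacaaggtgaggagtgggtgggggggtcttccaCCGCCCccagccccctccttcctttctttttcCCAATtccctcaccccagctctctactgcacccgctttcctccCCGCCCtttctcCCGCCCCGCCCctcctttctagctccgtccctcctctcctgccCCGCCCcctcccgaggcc
Sucla2: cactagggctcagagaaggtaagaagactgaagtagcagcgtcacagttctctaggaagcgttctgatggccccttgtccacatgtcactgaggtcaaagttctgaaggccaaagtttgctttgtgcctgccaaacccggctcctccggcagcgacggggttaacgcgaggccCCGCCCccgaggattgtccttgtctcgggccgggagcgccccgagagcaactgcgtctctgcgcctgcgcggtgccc
Tkt: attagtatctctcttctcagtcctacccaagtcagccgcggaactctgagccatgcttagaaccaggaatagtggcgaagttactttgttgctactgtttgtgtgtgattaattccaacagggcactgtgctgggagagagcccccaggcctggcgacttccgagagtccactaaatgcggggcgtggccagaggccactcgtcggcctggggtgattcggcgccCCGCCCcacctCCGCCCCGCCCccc
Clybl: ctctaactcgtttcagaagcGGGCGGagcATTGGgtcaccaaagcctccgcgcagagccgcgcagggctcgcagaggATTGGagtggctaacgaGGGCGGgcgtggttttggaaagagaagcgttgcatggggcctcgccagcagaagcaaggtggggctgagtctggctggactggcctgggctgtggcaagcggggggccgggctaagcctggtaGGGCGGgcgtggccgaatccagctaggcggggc
The Suclg2 window held 5 matches to GGGCGG and 1 to CCAAT, that of Sucla2 1 and 0, that of Tkt 3 and 0, and that of Clybl 3 and 2. A RefSeq promoter was matched for 38 of the 39 members (not Idh3a), and GGGCGG was found in 26 of them (68.4%), against 56.9% of 9266 measured genes and 32.9% of all 27025 genes with a promoter. By call it stood in 10 of 15 members that fell, 3 of 5 that rose and 13 of 18 that were not called. CCAAT was found in 5 of 15, 3 of 5 and 11 of 18, and in 36.7% of measured and 34.5% of all genes. TATAAA on either strand was in 0 of 38, and in 6.98% of measured and 13.0% of all genes. These are letter matches in 1 window per gene and say nothing of which factor binds.

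In glycolysis the falls were at 1 of 3 phosphofructokinase genes, Pfkm, and at Tpi1, Pgk1, Pkm and Ldha further down the pathway, and all 5 were called in each of the 4 other scalings. The hexokinase genes Hk1 and Hk2, whose products trap glucose as glucose-6-phosphate, differed by -0.15 and -0.28, neither called, and Hk1 lay below the median of every array. Pfkm, the muscle-type subunit of phosphofructokinase, the pathway's main control point, stood at 6.20, 6.44 and 6.62 on the GV arrays and at 4.39, 5.00 and 5.02 on the MII arrays. The stages did not overlap, and Pfkm fell by 1.61 ± 0.20 (SE), at least 3.06-fold as deposited, with an adjusted p of 7.7e-05 (limma). Its difference was -0.99 with equal medians and -1.03 after quantile normalization. The liver-type and platelet-type genes Pfkl and Pfkp differed by 0.10 and 0.22 and were not called.

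Among the middle enzymes, Tpi1 and Pgk1 fell and Aldoa and Pgam1 were not called. Tpi1, which interconverts the triose phosphates, was at 8.09, 8.33 and 7.99 in GV and 7.06, 6.83 and 6.88 in MII oocytes, and fell by 1.21 ± 0.15 on the log2 scale. Its other probe sets were at -1.34 and -1.60, both called lower. Pgk1, the first ATP-producing enzyme of the pathway, fell by 1.03 ± 0.15, with its other probe sets at -0.92 and -0.77, also called. Aldoa, which cleaves fructose bisphosphate, differed by 0.08 and was not called on any of its 5 probe sets, whose differences ran from -0.52 to 0.12. All 5 belong to a class that may bind more than 1 transcript, and GV replicate 1 was the highest GV array on each of them, as at 9.98 against 9.37 and 9.21 for the brightest. Pgam1, phosphoglycerate mutase, differed by 0.05. The 3 control features for Gapdh, the oxidising step of glycolysis and not a member, differed by -0.80 at the 3′ end, -0.39 in the middle and -0.24 at the 5′ end (exact permutation p = 0.1, 0.1 and 0.3, 0.1 being the smallest possible for 3 against 3). The Gapdh 3′ minus 5′ difference, a measure of how far copies reach toward the 5′ end, was 2.81 in GV and 2.25 in MII, while that of Actb was 0.51 and 0.49, and their part in the differences was not tested.

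At the exit of glycolysis, Pkm, pyruvate kinase, was at 9.73, 9.83 and 9.71 in GV and at 7.65, 7.89 and 8.22 in MII oocytes. It fell by 1.83 ± 0.17, or 3.56-fold (limma adjusted p = 8.2e-06). Ldha, the muscle-type subunit, was at 5.85, 5.72 and 5.67 in GV oocytes, below the median of every GV array, and at 3.31, 4.38 and 4.23 in MII oocytes. It fell by 1.77 ± 0.25, at least 3.42-fold as deposited, and differed by -1.15 with equal medians. Ldhb, the heart-type subunit and the main form in mouse oocytes, read 13.30 on all 6 arrays, the highest value the arrays hold. At that ceiling a rise cannot show and a fall can be hidden in part. The other 3 probe sets of Ldhb reached it on 4, 1 and 1 arrays, so their differences are capped too. Of these, 2 were at 0.09 and 0.10 and not called, and 1 was called lower at -0.62 ± 0.14, from 13.15 to 12.53, but was at 0.0025 and not called with equal medians.

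By the probe sets that stand for the genes, the largest fall of the 39 was at an enzyme of the non-oxidative pentose phosphate arm. Tkt, transketolase, which moves 2-carbon units between sugar phosphates, was at 10.32, 10.49 and 10.14 in GV and at 4.54, 4.77 and 4.54 in MII oocytes. It fell by 5.70 ± 0.15, at least 52.1-fold as deposited (limma adjusted p = 9.9e-09), and differed by -5.08 with equal medians. The sizes differed between its probe sets. A second was at -2.91 ± 0.27, called lower, and the third, below the median of every array, was at -0.28 and not called. The brightest one belongs to the class that may bind more than 1 transcript, and the others do not. Taldo1, transaldolase, its partner in this arm, was at 8.05, 8.58 and 8.37 and then at 8.28, 8.46 and 8.66, and differed by 0.13 ± 0.17. The pentose phosphate isomerase Rpia and epimerase Rpe differed by -0.03 ± 0.14 and -0.29 ± 0.14 and were not called, nor were the other probe sets of Rpe at 0.21 and -0.01. The Rpe values of 10.91, 10.98 and 11.21 in GV and 10.87, 10.62 and 10.72 in MII oocytes nearly met. In the oxidative arm, Pgls, the lactonase, fell by 0.57 ± 0.16 as deposited, from 6.30, 5.97 and 5.83 to 5.44, 5.56 and 5.40, but its difference turned positive and was not called with equal medians (0.06) and after quantile normalization (0.05). Pgd, which makes NADPH and ribulose-5-phosphate, differed by -0.38 ± 0.16 with overlapping stages, was not called, and was called lower without MII replicate 2 (-0.50).

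**Figure D3:**
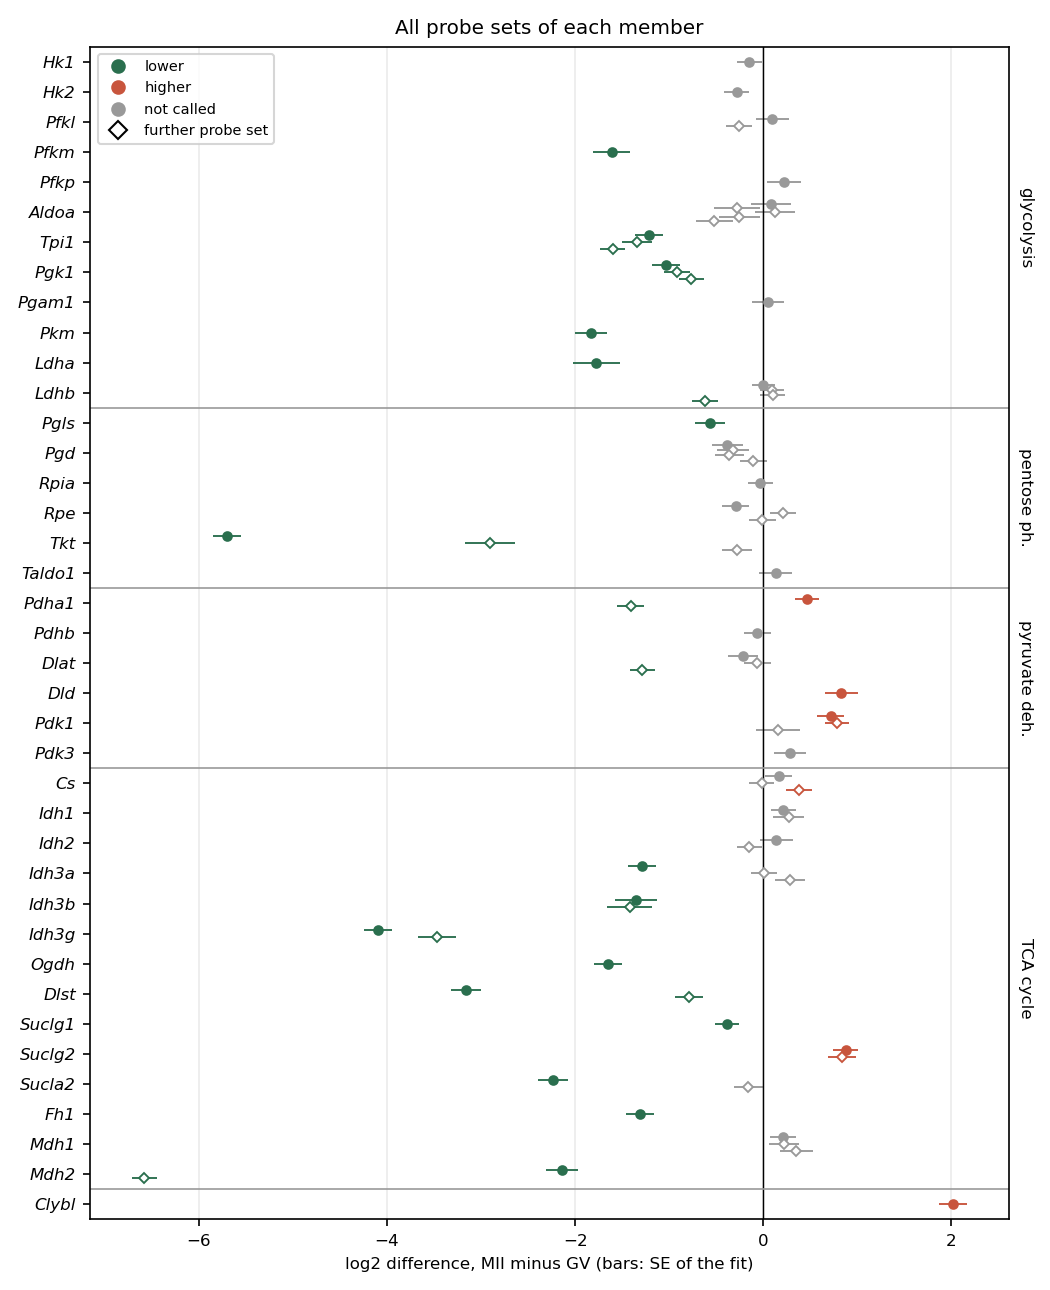
Log2 difference, MII minus GV (x axis, bars SE of the fit), for all 77 probe sets of the 39 members; filled circles stand for the gene and open diamonds are further probe sets, coloured by call. Probe sets of one gene differ most for Tkt (-5.70 to -0.28) and Mdh2 (-6.58 and -2.14), and Pdha1 has calls in both directions.

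The pyruvate dehydrogenase complex joins E1 (Pdha1 and Pdhb), E2 (Dlat) and E3 (Dld), and the kinases Pdk1 and Pdk3 switch it off by phosphorylating E1. Dld, the E3 subunit, which also serves the oxoglutarate dehydrogenase complex, was at 8.66, 8.51 and 8.87 in GV and at 9.82, 9.34 and 9.36 in MII oocytes, without overlap. It rose by 0.83 ± 0.17 (limma adjusted p = 0.0030), but was at 0.43 and not called with equal hybridization controls and at -0.04 with equal poly-A controls. Pdk1 was at 7.92, 7.75 and 8.02 and then at 8.65, 8.69 and 8.50, and rose by 0.71 ± 0.14 (0.31 and not called with hybridization controls, -0.16 with poly-A controls). Of its other probe sets 1 rose by 0.78 and 1, below the median of every array, was at 0.16. Pdk3 differed by 0.28 ± 0.17 and was not called.

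The catalytic subunits gave mixed readings. Pdha1 rose by 0.46 ± 0.13 on its brighter probe set, from 7.96, 8.02 and 8.08 to 8.41, 8.58 and 8.45, while its other probe set fell by 1.41 ± 0.15, from 8.07, 8.41 and 8.12 to 6.85, 6.85 and 6.66. Both were called, so the direction for Pdha1 depends on the probe set, and the mean of both differed by -0.47. It was the only member called in both directions, among 22 with several probe sets, of which 14 had the same call on all. Of these 14, Aldoa, Idh1, Idh2, Mdh1, Pfkl, Pgd and Rpe were not called on any probe set. The like shares over all genes are not given here. The Pdha1 rise was at 0.06 with hybridization controls, -0.41 with poly-A controls, and 0.41 and not called without MII replicate 2. Pdhb differed by -0.06 ± 0.14. Dlat differed by -0.21 and -0.06 on 2 probe sets, neither called, and the third, dimmer one fell by 1.28 ± 0.13.

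The TCA cycle held 9 of the 16 falls, and they included each subunit gene of the NAD-linked isocitrate dehydrogenase and both subunits particular to the oxoglutarate dehydrogenase complex. Cs, citrate synthase, which starts the cycle, was at 11.66, 11.43 and 11.38 in GV and 11.58, 11.79 and 11.60 in MII oocytes. It differed by 0.16 ± 0.14 and was not called, with its other probe sets at -0.01 and at 0.38, the latter called higher (adjusted p = 0.049, limma). At the NAD-linked isocitrate dehydrogenase, Idh3g, a regulatory subunit, was at 7.21, 7.34 and 7.05 in GV and at 3.26, 3.10 and 2.95 in MII oocytes. Its fall of 4.10 ± 0.15, at least 17.1-fold (limma adjusted p = 2.8e-08), was matched by a second probe set at -3.47.

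Idh3b, another subunit, fell by 1.35 ± 0.22, with its other probe set at -1.42, also called. Idh3a, the catalytic subunit, fell by 1.29 ± 0.15 on its brightest probe set, and its other 2, both below the median of every array, were at 0.01 and 0.28 and not called. The NADP-linked enzymes of the same reaction were not called. Idh1, in the cytosol, differed by 0.21 ± 0.13 and Idh2, in mitochondria, by 0.14 ± 0.18.

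In the oxoglutarate dehydrogenase complex, Dlst, the E2 subunit, was at 10.09, 9.83 and 9.77 in GV and at 6.95, 6.75 and 6.50 in MII oocytes, and fell by 3.16 ± 0.16, or 8.96-fold (limma adjusted p = 1.7e-07). A dimmer probe set of Dlst fell by 0.79. Ogdh, its E1 subunit, fell by 1.65 ± 0.15, from 7.20 ± 0.21 (SD, n = 3) to 5.55 ± 0.09 (SD, n = 3) without overlap. Dld, the E3 subunit that it shares with pyruvate dehydrogenase, is the one that was higher in MII oocytes as deposited.

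Succinyl-CoA ligase pairs the common alpha subunit Suclg1 with a beta subunit that makes either ATP (Sucla2) or GTP (Suclg2), and the beta subunits were called in opposite directions on the deposited scale. Sucla2 was at 11.28, 11.48 and 11.29 in GV and at 9.38, 8.95 and 9.02 in MII oocytes, and fell by 2.23 ± 0.16, or 4.71-fold. Its other probe set, near the bottom of the range at 2.69 and 2.53, was not called. Suclg2 was at 8.04, 7.81 and 7.94 and then at 8.76, 8.76 and 8.89. It rose by 0.88 ± 0.13, and by 0.84 on its other probe set, but was at 0.47 and not called with hybridization controls and at 0.00 with poly-A controls. Suclg1 differed by -0.39 ± 0.13 and was called lower, a call lost without any one of GV replicates 1 and 2 and MII replicates 1, 2 and 3 (-0.41 to -0.37), with hybridization controls made equal (-0.79), and turned to 0.24 with equal medians.

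Later in the cycle, Fh1, fumarase, fell by 1.31 ± 0.15, from 9.83 ± 0.16 (SD, n = 3) to 8.52 ± 0.17 (SD, n = 3) without overlap. Mdh2, the mitochondrial malate dehydrogenase, was at 8.93, 9.35 and 8.89 in GV and at 7.12, 6.90 and 6.76 in MII oocytes, and fell by 2.14 ± 0.17. Its other probe set fell by 6.58 ± 0.13, at least 95.7-fold, from 10.40, 10.30 and 10.24 to 3.72, 3.68 and 3.81, the largest difference of any of the 77 probe sets. Mdh1, the cytosolic form, differed by 0.21 to 0.35 on its 3 probe sets and was not called on any of them. Clybl, a mitochondrial lyase that clears citramalyl-CoA, was at 8.13, 7.84 and 8.22 and then at 10.12, 10.15 and 9.97. It rose by 2.02 ± 0.15, or 4.05-fold (limma adjusted p = 1.8e-06), on its only probe set, and by 1.15 to 2.64 in the other scalings.

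Comparing 2 genes on the same array removes any shift common to that array. This was done for 19 pairs of isozymes or subunits, each tested by an exact 2-sided permutation test over the 6 arrays, where the smallest p is 0.1, and 0.127 after Benjamini-Hochberg adjustment over the pairs, so no pair could reach 0.05. The log2 ratio of Suclg2 to Sucla2 was -3.25, -3.67 and -3.36 on the GV arrays and -0.62, -0.19 and -0.13 on the MII arrays. It was higher in MII by 3.11 ± 0.20 (SE over arrays; exact permutation p = 0.1), and by 3.32 after quantile normalization and 2.06 with the mean over probe sets. For the same enzyme, the log2 ratio of Suclg1 to Suclg2 changed by -1.26 ± 0.10 and that of Suclg1 to Sucla2 by 1.85 ± 0.13, or by 0.81 with the mean over probe sets.

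The log2 ratio of Tkt to Taldo1 changed by -5.84 ± 0.20 as measured, and by -3.10 with the mean over probe sets. It changed by -3.04 without probe sets that may match several transcripts. The size of -5.84 is a lower bound for the brightest Tkt probe set, which ended below the MII array medians. That of Mdh1 to Mdh2 was higher by 2.35 ± 0.26, from 1.26, 0.54 and 1.22 to 3.14, 3.46 and 3.46, and by 4.62 with the mean over probe sets. Within the NAD-linked isocitrate dehydrogenase, the ratio of Idh3a to Idh3b changed by 0.06 ± 0.34 with overlapping stages, by 1.05 with the mean over probe sets and by -0.05 after quantile normalization. The ratio of each to Idh3g was higher in MII, by 2.81 ± 0.18 and 2.75 ± 0.21 as measured, and by 3.45 and 2.40 with the mean over probe sets. Idh3g ended below the MII array medians, so part of both changes may not show. The ratio of Ogdh to Dlst was higher by 1.51 ± 0.12, but by 0.32 with the mean over probe sets.

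Among the phosphofructokinase genes, the ratio of Pfkl to Pfkm was higher by 1.71 ± 0.28, or by 1.53 with the mean over probe sets. That of Pfkm to Pfkp changed by -1.83 ± 0.40 (-1.44 without MII replicate 1). Pfkm ended below the MII array medians, so part of both changes may not show. Pfkl to Pfkp changed by -0.12 ± 0.38 with overlapping stages (-0.30 with the mean over probe sets). Ldha to Ldhb changed by -1.77 ± 0.34, with Ldha below the array medians and Ldhb at the top of the range. Dlat to Dld changed by -1.04 ± 0.31, Pdk1 to Pdk3 by 0.43 ± 0.17 (0.27 with the mean over probe sets), and Pdha1 to Pdhb by 0.53 ± 0.14 but by -0.41 with the mean over probe sets. Rpia to Rpe, Idh1 to Idh2 and Hk1 to Hk2 changed by 0.26 ± 0.14, 0.07 ± 0.19 and 0.14 ± 0.11, the last turning to -0.39 after quantile normalization. With the mean over probe sets Rpia to Rpe changed by 0.00076 and Idh1 to Idh2 by 0.24, and after quantile normalization they changed by 0.46 and 0.027.

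**Figure D4:**
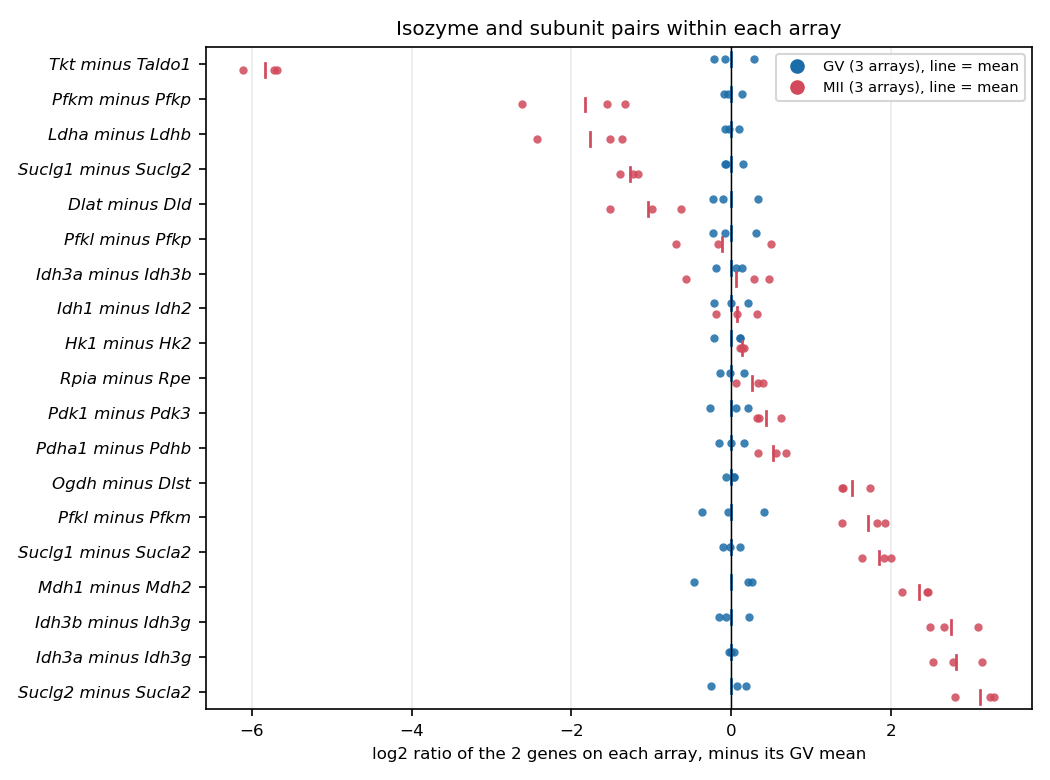
Log2 ratio of 2 members on each array, minus the mean of the GV arrays (x axis), for 19 pairs, with 3 GV points (blue), 3 MII points (red) and a short line at each mean. The ratio of Suclg2 to Sucla2 was higher on all 3 MII arrays, by 3.11 on average, and that of Tkt to Taldo1 was lower on all 3, at -5.84 on average.

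The 18 members not called were Hk1, Hk2, Pfkl, Pfkp, Aldoa, Pgam1, Ldhb, Pgd, Rpia, Rpe, Taldo1, Pdhb, Dlat, Pdk3, Cs, Idh1, Idh2 and Mdh1. Their differences ran from -0.38 for Pgd to 0.28 for Pdk3. The 95% intervals of all 18 lay within a 2-fold change as deposited, and those of 14 within 1.5-fold, the others being Pfkp, Pgd, Rpe and Pdk3. These intervals cover the spread between arrays and not the choice of scale, and for Ldhb the interval has no meaning at the top of the range.

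Of 67 further genes of these pathways, 39 were measured. Of these 15 fell (38.5%) and 9 rose (23.1%), against 37.8% and 10.5% of all genes. The 15 falls became 7 with equal medians, 10 after quantile normalization and 30 with poly-A controls made equal, and stayed at 15 with hybridization controls. The 9 rises became 0 with hybridization controls made equal and 0 with poly-A controls (22 with equal medians, 17 after quantile normalization), 7 with no moderation, 6 without GV replicate 1 or without MII replicate 2, and 5 without MII replicate 3. Mpc1, a subunit of the mitochondrial pyruvate carrier, rose by 0.84 ± 0.24, a call lost without GV replicate 1 (0.67) and without MII replicate 3 (0.64). Glud1, which feeds glutamate into the cycle, rose by 0.94 ± 0.16 (its other probe set was at -0.19 and not called). Aco1, the cytosolic aconitase, and Lipt1, a lipoyltransferase that serves the 2-oxoacid dehydrogenases, fell by 3.77 ± 0.13 and 3.29 ± 0.14, the latter at least 9.78-fold, and the other probe sets of Aco1 were at -3.43, called, and -0.18, not called. The subunit genes of succinate dehydrogenase went different ways on the probe sets that stand for them. Sdhb, the iron-sulfur subunit, fell by 3.26 ± 0.17, at least 9.59-fold. Sdha and Sdhd were called higher, at 0.42 ± 0.13 and 0.98 ± 0.14, though neither was with hybridization or poly-A controls made equal, and each had another probe set called lower, at -0.72 and -1.69. Sdhc differed by -0.26 and was not called, but its other probe set was called lower at -0.93. Dhtkd1, which encodes an oxoadipate dehydrogenase related to Ogdh, fell by 2.70 ± 0.19. Pdhx, the E3-binding protein of pyruvate dehydrogenase, was called lower at -0.61 ± 0.15, but not with equal medians, where the difference turned to 0.01, or after quantile normalization (-0.09). Slc2a1, a glucose transporter, fell by 1.06 ± 0.25 (not called with equal medians, -0.44, or after quantile normalization, -0.48) and Ldhc, the germ cell lactate dehydrogenase, by 3.14 ± 0.21, at least 8.80-fold. Tktl2, a transketolase-like gene, was called higher at 1.04 ± 0.18 where Tkt fell. These genes were picked from the list after their values were seen.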

How the data were processed

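Expression was measured on 6 arrays, 3 GV and 3 MII. The authors deposited log2 values, made with RMA in the R package affy per the submitters' processing notes; versions are not given in the sources used. The 56 control features were left out of the tests, which left 21646 probe sets. All arrays share the same lowest and highest value, yet their medians over the tested probe sets differ between stages. Which step set this scale is not stated there, and 4 other scales were tried. The log2 values were fitted with limma 3.58.1 (lmFit and eBayes, R 4.3.3) on stage alone. Benjamini-Hochberg adjustment was over all probe sets, with a threshold of 0.05. The procedure was tested on simulated data with no overall shift between stages, so that test does not bear on the choice of scale. Of the probe sets, 19078 had 1 annotated symbol, and the one brightest on average across the 6 arrays stood for its gene. Pairs of genes were tested by exact permutation over arrays. Values per array are given, in each step, for up to 4 called members with the largest fall, up to 2 with the largest rise and the member with the highest mean, and for Clybl; Taldo1, Pdha1, Aldoa and the second Mdh2 probe set were added after their values were seen. The members and lists were chosen with earlier results of these data known. Other alternatives were each array left out, a replicate block, no moderation, a filter on dim probe sets, the mean over probe sets, and leaving out probe sets that may match several transcripts. The number of arrays limits the precision.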

Additional observations from a re-analysis of the deposited data

How the results depend on the processing

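The scale between arrays moved the counts most. With poly-A controls made equal, 34 members were lower and 1 higher, as were 69 and 1 of their probe sets and 18380 and 65 of all probe sets; 12 glycolytic, 6 pentose phosphate and 3 pyruvate dehydrogenase genes were lower, and 0 were higher in the pyruvate dehydrogenase step and the TCA cycle. Differences that changed sign were then Pfkl -0.78, Pfkp -0.65, Aldoa -0.79, Pgam1 -0.82, Taldo1 -0.74, Pdha1 -0.41, Dld -0.043, Pdk1 -0.16, Pdk3 -0.59, Cs -0.71, Idh1 -0.66, Idh2 -0.73 and Mdh1 -0.66. With hybridization controls made equal, 1 member, 1 of their probe sets and 104 of all probe sets were higher, with 0 in the pyruvate dehydrogenase step and 0 in the TCA cycle, and Pfkl was at -0.31, Pfkp -0.19, Aldoa -0.32, Pgam1 -0.36, Taldo1 -0.27, Pdk3 -0.12, Cs -0.24, Idh1 -0.19, Idh2 -0.27 and Mdh1 -0.19. With equal medians, 4306 of all probe sets were lower and 12016 higher, 21 members and 41 of their probe sets were higher (7 genes in glycolysis, 2 in the pentose phosphate pathway, 6 in the pyruvate dehydrogenase step, 5 in the TCA cycle), 1 pentose phosphate gene was lower, and Hk1 was at 0.48, Hk2 0.34, Pgls 0.056, Pgd 0.24, Rpia 0.59, Rpe 0.33, Pdhb 0.56, Dlat 0.41 and Suclg1 0.24. After quantile normalization, 4794 of all probe sets were lower and 7538 higher, 16 members and 29 of their probe sets were higher (4, 2, 5 and 4 genes in the same steps), 1 pentose phosphate gene was lower, and Hk2 was at 0.38, Pgls 0.050, Pgd 0.19, Rpia 0.47, Rpe 0.0077, Pdhb 0.58, Dlat 0.39 and Suclg1 0.26, with Hk1 minus Hk2 at -0.39 and Idh3a minus Idh3b at -0.052. The cause of these shifts was not tested. Ldhb was among the 7 glycolytic genes higher with equal medians (0.62) and the 12 lower with poly-A controls (-0.87). It read the highest value on all 6 arrays, so both differences are the change of scale alone.

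With only probe sets above the median, 4438 of all probe sets, 3 glycolytic genes and 1 pentose phosphate gene were lower, fewer having been tested. With no moderation of the variance, 1 pentose phosphate gene was lower and 1279 of all probe sets were higher. With the mean over probe sets, 2 pyruvate dehydrogenase genes were lower, Pfkl was at -0.083, Aldoa -0.17, Pdha1 -0.47 and Idh2 -0.0048, and Pdha1 minus Pdhb was at -0.41. With 1 array left out at a time, the probe sets higher in MII numbered 1547 to 2127. Differences that changed sign ranged from -0.094 to 0.18 for Pgam1, -0.10 to 0.021 for Rpia, -0.14 to 0.015 for Pdhb, -0.056 to 0.20 for Pfkl, -0.073 to 0.32 for Aldoa and -0.0088 to 0.26 for Taldo1. The pair ratios that did so ranged from -0.14 to 0.38 for Idh3a minus Idh3b, -0.43 to 0.16 for Pfkl minus Pfkp and -0.057 to 0.20 for Idh1 minus Idh2. Of the 16 falls, 15 were called without each array in turn (not Suclg1), as were 4 of the 5 rises (not Pdha1). The like share of all called genes is not given here.

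Same-numbered GV and MII samples had correlations of 0.09, 0.03 and 0.03 between their deviations from the stage means. Those of differently numbered samples ran from -0.28 to 0.29. With 3 arrays per stage these values cannot show whether samples were paired. The first sample of each stage carries no number in its title and was counted as 1. With the replicate number as a block, 15 members were lower and 5 higher, as were 7300 and 2400 of all probe sets. Counts not named under a setting stayed within 1.5 times those reported. Signal sets a limit at both ends, since Ldhb lay at the highest value on all 6 arrays and Hk1 and Pgam1 lay below the median of each array.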
